A study of Drosophila melanogaster with 4 samples.

Results

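The response of larvae that carry an extra copy of 2L (the left arm of chromosome 2) was compared between males and females of Drosophila melanogaster. For each gene the response of a sex was the log2 ratio of trisomic over normal larvae of that sex, computed on CPM (read counts scaled to a sum of 1000000) plus 1. The difference of responses was the response in males minus the response in females, so that a value above 0 marks a gene with the more positive response in males. A gene entered the comparison when all 4 groups reached at least 10 CPM, which kept 4918 of 14161 gene names (34.7%).

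The groups were trisomic males and normal males, and trisomic females and normal females, all of them larvae of the third instar from stocks kept at 25 degrees. Trisomic larvae carried 3 copies of 2L and normal larvae, called Cantons in the series' design text, carried 2. The labels name 4 biological replicates for each group, but the values analysed were the authors' means, with 1 value per gene and group. Every difference below is therefore a size with no replicate check, error or test; whether replicates of the groups overlap cannot be judged, and library depth is unknown. The sources used here do not say how the trisomic larvae were obtained, and strain and exact stage cannot be told apart from karyotype. RNA came from whole larvae, in which fewer cells of a type and less RNA per cell cannot be told apart.

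Males of this species have a single X, and the MSL complex with its roX RNAs raises transcription of that X to match the female pair. An extra copy of an autosomal arm leaves the X complement of each sex as it was but changes the balance of X to autosomes and the dose of every gene on the arm. At this stage the larva feeds, stores protein and fat for metamorphosis, secretes glue and prepares the puparial cuticle, which hardens and darkens under ecdysone control, while the testis already holds spermatocytes and the ovary remains small. As a check of the labels, the male RNA roX1 was far more abundant in both male groups, at 285 CPM in trisomic and 506 CPM in normal males, and 22.4 CPM in trisomic and 13.1 CPM in normal females. The excess of 2L genes over those of 2R, 3L and 3R, as a difference of median responses, was 0.33 in males and 0.40 in females.

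Most genes had responses of the same sign in both sexes, and the responses were more widely spread in males. Of the 4918 genes, 4180 (85.0%) shared the sign of the response, and across genes, which share libraries and are not replicates, Pearson's r was 0.88 and Spearman's rho 0.87. The standard deviation over genes of the response was 0.72 in males and 0.60 in females, a ratio of 1.20. Past 1.5-fold, trisomic males exceeded normal males in 790 genes (16.1%) and lay below them in 1165 (23.7%); for females these counts were 695 (14.1%) and 914 (18.6%). The difference of responses lay above 0 in 2200 genes (44.7%) and below 0 in 2718 (55.3%), had a median of -0.04 and ran from -2.005 to 1.65, with the central 90 percent of genes between -0.51 and 0.62. A difference of at least 0.585 in size, which is 1.5-fold, was reached by 463 genes (9.41%), of which 291 (5.92% of all) lay above 0 and 172 (3.5% of all) below 0. This balance depended on the minimum: with none, 768 genes lay past the threshold above 0 and 2444 below, and when the mean of the groups had to reach 10 CPM, a choice added after seeing the data, 371 above and 599 below. Of the 4918 genes, 44 (0.895%) reached a 2-fold difference above 0 and 36 (0.732%) below 0. Just inside the 1.5-fold threshold stood Jon99Ci (0.5857) and gpp (-0.5853), and just outside it CG7025 (0.5840) and pcx (-0.5816).

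The genes past the threshold fell into 6 classes by the direction of the response in each sex. Of the 291 genes with the more positive response in males, 165 were higher in trisomic larvae in both sexes, with median responses of 1.47 in males and 0.71 in females. A further 84 were higher in trisomic males and lower in trisomic females (medians 0.39 and -0.40), and 42 were lower in both, less so in males (-0.32 and -1.08). Of the 172 genes with the more positive response in females, 77 were lower in both sexes, more so in males (-1.24 and -0.45), 78 were lower in trisomic males and higher in trisomic females (-0.45 and 0.31), and 17 were higher in both, more so in females (0.26 and 0.97). Differences above 0 were thus most often seen in genes higher in trisomic larvae in both sexes, and those below 0 mostly in genes lower in trisomic males, with or without a lower level in trisomic females.

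**Figure D1:**
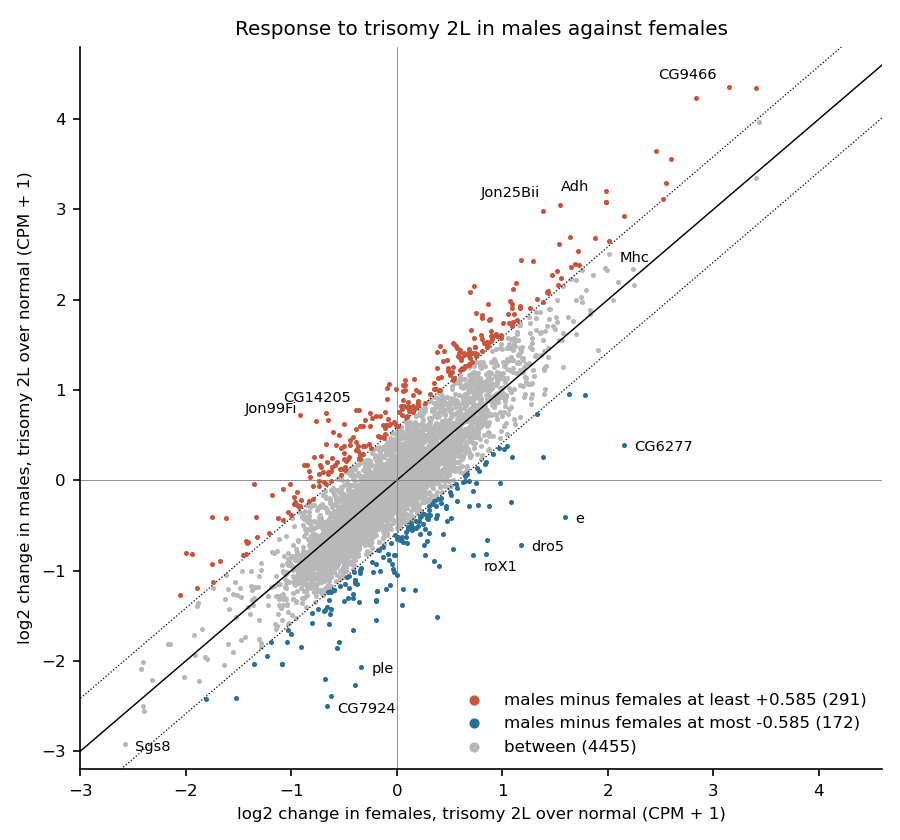
Response to trisomy 2L in males (vertical axis) against females (horizontal axis), each as log2 of trisomic over normal CPM + 1, with 1 point per gene for 4918 genes. The solid line marks equal responses and the dotted lines a difference of 0.585; 291 genes lie above the upper line and 172 below the lower one, and the cloud is steeper than the line of equality (standard deviations over genes 0.72 in males and 0.60 in females).

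The share of genes past the threshold depended on their level. Among genes with a mean of 10 to 20 CPM over the groups, 1.83% had a difference past the threshold above 0 and 1.33% below 0. Among genes of at least 100 CPM these shares were 13.8% and 5.06%. The median difference was -0.04 in the first of these ranges and 0.10 in genes of at least 100 CPM, of which 61.9% lay above 0. Because each group had to reach 10 CPM, genes with a mean of 10 to 20 CPM had little room for a large difference. The count added before log2 shrinks their differences further. The dependence on level is thus partly built in by the filter.

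Genes of energy metabolism had the more positive response in males. Glycolysis splits glucose to pyruvate, and its genes were higher in trisomic larvae in both sexes, with a median response of 1.61 in males and 0.81 in females. Of 13 glycolysis genes kept, 12 had a difference above 0 and 10 passed the threshold, none of them below 0. Over all genes 44.7% lay above 0 and 5.92% passed the threshold above 0. The median difference of the 13 genes was 0.68 against -0.04 over all genes, and 7 of the 13 had means of at least 100 CPM. The glycerol-3-phosphate dehydrogenase gene Gpdh (2L) stood at 121 CPM in trisomic and 34.002 CPM in normal males, and 103 CPM in trisomic and 58.4 CPM in normal females, a difference of 0.99. The phosphoglycerate mutase gene Pglym78 (3R) stood at 115 CPM in trisomic and 39.6 CPM in normal males, and 104 CPM in trisomic and 70.9 CPM in normal females (0.97). In both genes the trisomic sexes lay closer to each other than the normal sexes did, with normal males lowest of the 4 groups. Triose phosphate isomerase (Tpi, 0.77), Gapdh1 (0.76), phosphoglycerate kinase (Pgk, 0.70), pyruvate kinase (PyK, 0.69) and aldolase (Ald, 0.68) followed. Phosphofructokinase (Pfk) alone among the 13 had a difference below 0, at -0.07, with responses of 1.62 in males and 1.70 in females. Summed over the 14 list members, glycolysis took 3538 CPM in trisomic and 1176 CPM in normal males, and 3269.8 CPM in trisomic and 1707.5 CPM in normal females.

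Enzymes that feed glycolysis and burn its products had differences of the same sign. Glycogen phosphorylase (GlyP, 2L), which releases glucose units from glycogen, stood at 599 CPM in trisomic and 119.6 CPM in normal males, and 533 CPM in trisomic and 185 CPM in normal females (0.79), and the trehalose synthase gene Tps1 had a difference of 0.61. All 6 genes of glycogen and trehalose metabolism kept had differences above 0, with a median of 0.43, or 0.24 without the 2 genes on 2L. Over all genes 44.7% lay above 0 and 5.92% passed the threshold above 0. Among genes with means of at least 100 CPM these shares were 61.9% and 13.8%. In the tricarboxylic acid cycle, where 6 of 19 genes had such means, 17 lay above 0 and 4 passed the threshold, with a median of 0.46. These 4 were malic enzyme (Men, 0.74), the fumarase gene l(1)G0255 (0.74), the malate dehydrogenase gene CG7998 (0.62) and the pyruvate dehydrogenase gene l(1)G0334 (0.62). Men was highest in trisomic males, at 280.2 CPM in trisomic and 82.98 CPM in normal males, and 187 CPM in trisomic and 92.8 CPM in normal females. Of the 30 respiratory chain and ATP synthase genes kept, 10 had means of at least 100 CPM. All 30 had differences above 0, with a median of 0.32, and 4 passed the threshold. The Rieske iron-sulphur protein gene RFeSP (2L) led them at 67.00 CPM in trisomic and 15.8 CPM in normal males, and 47.8 CPM in trisomic and 18.4 CPM in normal females (0.69), followed by the complex III core gene CG4169 (0.67) and the ATP synthase genes ATPsyn-b (0.67) and ATPsyn-gamma (0.59).

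Genes that handle fatty acids and alcohols were put into lists after their values had been seen, so their counts only describe them. All 18 genes of fatty acid oxidation kept lay above 0, with a median of 0.49, and 7 passed the threshold. The acyl-CoA dehydrogenase gene CG3902 stood at 85.2 CPM in trisomic and 24.02 CPM in normal males, and 74.6 CPM in trisomic and 39.9 CPM in normal females (0.90), and the electron transfer flavoprotein gene CG7834 had a difference of 0.82. The carnitine carrier gene colt (0.64) passed the threshold, while whd, which encodes carnitine palmitoyltransferase, was lower in trisomic larvae with responses of -0.88 in males and -0.95 in females. Acyl-CoA binding proteins carry activated fatty acids in the cytosol, and 5 of their 6 genes passed the threshold above 0, with a median of 0.76. CG8629 of that family stood at 55.9 CPM in trisomic and 27.3 CPM in normal males, and 44.7 CPM in trisomic and 45.1 CPM in normal females (1.02), that is, higher in trisomic than in normal males and level between the female groups. The alcohol dehydrogenase gene Adh (2L), whose product oxidises ethanol from fermenting food, stood at 962 CPM in trisomic and 112 CPM in normal males, and 961 CPM in trisomic and 242 CPM in normal females (1.10). The 2 trisomic sexes had nearly the same level of Adh, whereas normal males had less than normal females. Adhr lies beside Adh and shares transcripts with it, and its nearly identical values (1.10) cannot be taken as a second observation. Sodh-2, a sorbitol dehydrogenase gene on 3R, had a difference of 1.09.

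**Figure D2:**
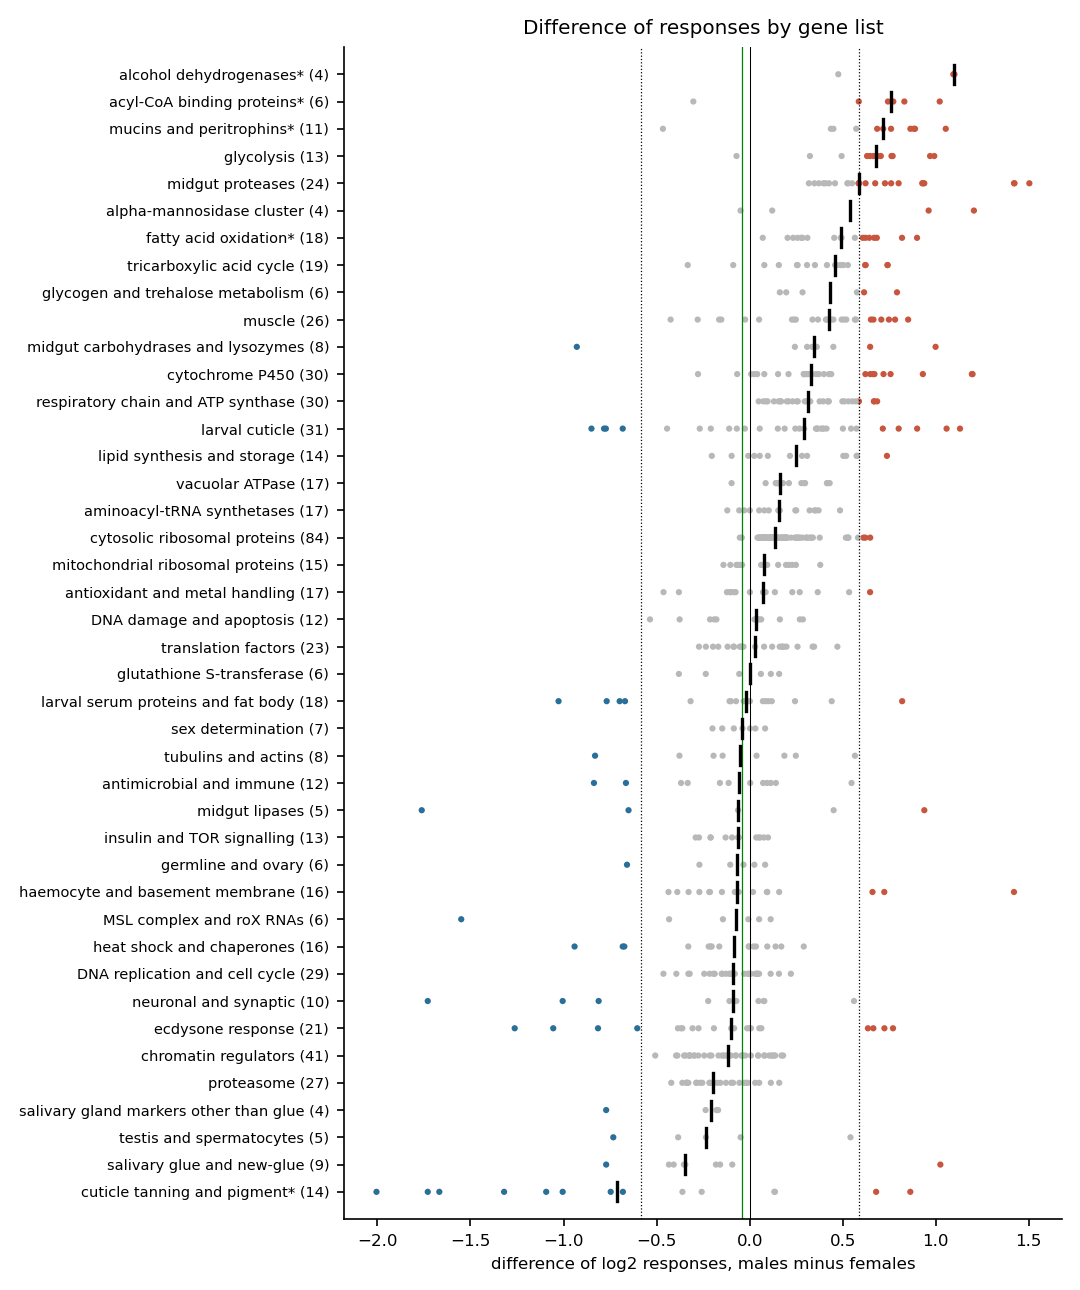
Difference of responses, males minus females on the log2 scale, for each kept gene of 42 gene lists (kept genes in brackets), ordered by list median (black bars). Red points lie at or above 0.585, blue points at or below -0.585 (dotted lines), the green line is the median of all 4918 genes (-0.04), and lists with an asterisk were chosen after values had been seen; glycolysis and midgut proteases lie high (medians 0.68 and 0.59) and cuticle tanning low (-0.71).

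Midgut proteases also had the more positive response in males. All 24 midgut protease genes kept had differences above 0, with a median of 0.59, and 14 passed the threshold, among them many Jonah (Jon) serine proteases of the larval gut. Over all genes 44.7% lay above 0 and 5.92% passed the threshold above 0. Of the 24 genes 18 had means of at least 100 CPM, a range in which 61.9% lay above 0 and 13.8% passed above 0. The responses behind these differences were not alike. Past 1.5-fold in males, 8 of the 24 genes were higher and 7 lower in trisomic than in normal larvae, against 16.1% and 23.7% of all genes. In females 3 were higher and 12 lower, against 14.1% and 18.6% of all genes. Jon25Bii (2L) stood at 979.6 CPM in trisomic and 118 CPM in normal males, and 765 CPM in trisomic and 262 CPM in normal females, higher in trisomic larvae, more so in males (1.503). Jon99Fi (3R) stood at 383 CPM in trisomic and 243 CPM in normal males, and 282 CPM in trisomic and 482 CPM in normal females, higher in trisomic than in normal males and lower in trisomic than in normal females (1.42). Its neighbour Jon99Fii had responses of 0.75 in males and -0.67 in females, and reads may be shared between these close copies, as among other Jon and trypsin genes. Jon65Aiv had the highest CPM of them and stood at 5151 CPM in trisomic and 4957 CPM in normal males, and 4682 CPM in trisomic and 6765 CPM in normal females (0.59). Jon66Ci stood at 1223 CPM in trisomic and 804 CPM in normal males, and 1079 CPM in trisomic and 1349.9 CPM in normal females (0.93). Trisomic males lay below trisomic females in 8 of the 24 genes, and normal males below normal females in all 24.

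Other digestive enzymes of the midgut had differences in both directions. The lysozyme gene LysS stood at 889.6 CPM in trisomic and 475 CPM in normal males, and 726 CPM in trisomic and 776 CPM in normal females (0.999), and the maltase gene LvpH had a difference of 0.65, while the lysozyme gene LysX stood at 49.5 CPM in trisomic and 67.9 CPM in normal males, and 72.4 CPM in trisomic and 51.7 CPM in normal females (-0.93). Of 8 carbohydrase and lysozyme genes 7 lay above 0 (44.7% of all genes), with a median of 0.35. In the alpha-mannosidase cluster on 2L, CG9466 stood at 446 CPM in trisomic and 20.9 CPM in normal males, and 502 CPM in trisomic and 55.7 CPM in normal females (1.21) and CG9468 had a difference of 0.96, while the cluster's CG5322 (-0.05) and CG6206 (0.12) lay near 0. Of 5 genes of the lipase family 1 passed the threshold above 0 (5.92% of all genes) and 2 below (3.5%), with a median of -0.06. CG6296 stood at 249 CPM in trisomic and 11.3 CPM in normal males, and 199 CPM in trisomic and 17.9 CPM in normal females (0.94). CG6277 stood at 17.3 CPM in trisomic and 12.9 CPM in normal males, and 77.03 CPM in trisomic and 16.5 CPM in normal females (-1.76). CG6277 was thus high in trisomic females and low in trisomic males, normal males and normal females. Mucins and peritrophins form the mucus and the peritrophic matrix that line the gut. Of their 11 genes 10 lay above 0 (44.7% of all genes) and 7 passed the threshold above 0 (5.92%), with a median of 0.72. Means of at least 100 CPM were found in 8 of the 11, a range in which these shares were 61.9% and 13.8%. This list was also chosen after values had been seen, so its counts only describe it. Mur18B (X) stood at 195 CPM in trisomic and 29.4 CPM in normal males, and 119.5 CPM in trisomic and 37.7 CPM in normal females (1.05) and Peritrophin-15a (2L) at 319.7 CPM in trisomic and 229.7 CPM in normal males, and 257 CPM in trisomic and 343 CPM in normal females (0.89).

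Most cytochrome P450 genes had the more positive response in males. Of 30 genes of this family, whose products oxidise toxins and hormones, 28 had differences above 0 (44.7% of all genes) and 9 passed the threshold above 0 (5.92%). Their median difference was 0.33. At least 1.5-fold lower in trisomic larvae were 7 of the 30 in males, where 23.7% of all genes were, and 13 in females, where 18.6% were. Their median response was -0.12 in males and -0.46 in females. Cyp28a5 (2L) stood at 105 CPM in trisomic and 141 CPM in normal males, and 99.4 CPM in trisomic and 307 CPM in normal females (1.20), and Cyp6a23 (2R) stood at 143 CPM in trisomic and 249 CPM in normal males, and 114 CPM in trisomic and 456 CPM in normal females (1.19). In both genes normal females were highest of the 4 groups, and the trisomic sexes were close to each other. Uro, the urate oxidase gene of the Malpighian tubule, stood at 109 CPM in trisomic and 67.97 CPM in normal males, and 73.4 CPM in trisomic and 116 CPM in normal females (1.32), with the groups of each sex in opposite order. The UDP-glycosyltransferase gene CG5724 stood at 23.6 CPM in trisomic and 24.4 CPM in normal males, and 15.9 CPM in trisomic and 42.1 CPM in normal females (1.31), highest in normal females and lowest in trisomic females. Glutathione S-transferases, another family of detoxification, had 3 of 6 genes above 0, a median of 0.00 and none past the threshold.

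Muscle genes were mostly higher in trisomic larvae, and more so in males (median responses 1.14 in males and 0.62 in females). Of 26 muscle genes 17 had means of at least 100 CPM, a range in which 61.9% of genes lay above 0 and 13.8% passed the threshold above 0. Differences above 0 were found in 21 of the 26 (44.7% of all genes), and 6 passed the threshold above 0 (5.92%). None passed it below 0, and the median was 0.43. The 6 were the tropomyosins Tm1 (0.65) and Tm2 (0.85), the myosin light chain Mlc2 (0.78), the calcium-binding troponins TpnC47D (0.75) and TpnC25D (0.67), and troponin T (up, 0.71). Tm2 stood at 552 CPM in trisomic and 142 CPM in normal males, and 469 CPM in trisomic and 219 CPM in normal females, and up stood at 751 CPM in trisomic and 146 CPM in normal males, and 492 CPM in trisomic and 156.03 CPM in normal females. Mlc2 differed between karyotypes in males and hardly in females, at 1889 CPM in trisomic and 1066 CPM in normal males, and 1616 CPM in trisomic and 1567 CPM in normal females. The titin-like gene sls (-0.42), Zasp66 (-0.28) and Mlc-c (-0.16), a light chain of non-muscle myosin, lay below 0.

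Genes of cuticle tanning mostly had the more positive response in females, with differences below 0 in 10 of 14. Tanning hardens and colours cuticle with dopamine derivatives. The list of its genes was chosen after values had been seen, which favours a low median, so its counts only describe it. Of 14 genes 8 passed the threshold below 0 and 2 above it, with a median of -0.71, or -0.47 without the 4 genes on 2L and 0.01 when genes of any level were kept. The tyrosine hydroxylase gene ple (3L), which starts dopamine synthesis, stood at 74.4 CPM in trisomic and 316 CPM in normal males, and 183 CPM in trisomic and 232 CPM in normal females (-1.73). The dopa decarboxylase gene Ddc (2L) stood at 83.7 CPM in trisomic and 85.5 CPM in normal males, and 147 CPM in trisomic and 74.5 CPM in normal females (-1.005), level in males and higher in trisomic than in normal females. ebony (e, 3R), which couples dopamine to beta-alanine, stood at 22.1 CPM in trisomic and 29.7 CPM in normal males, and 74.1 CPM in trisomic and 23.9 CPM in normal females, the most negative difference of all genes kept (-2.005). black (b, 2L), which supplies beta-alanine, stood at 12.8 CPM in trisomic and 15.3 CPM in normal males, and 30.1 CPM in trisomic and 13.7 CPM in normal females (-1.32). Both e and b were thus highest in trisomic females, with the other groups close together, whereas ple was lowest in trisomic males. The cofactor of tyrosine hydroxylase is made and recycled by Pu and Dhpr, which also lay below 0 (-1.09 and -0.68). Pu, a GTP cyclohydrolase gene, was high in normal males, at 119 CPM in trisomic and 267 CPM in normal males, and 70.1 CPM in trisomic and 73.4 CPM in normal females. Among yellow-family genes, yellow-c (2L) stood at 22.9 CPM in trisomic and 41.2 CPM in normal males, and 52.1 CPM in trisomic and 28.5 CPM in normal females (-1.67) and yellow-f had a difference of -0.75, while yellow-d2 (0.68) and the dopamine acetyltransferase gene Dat (0.86) lay above 0. The phenylalanine hydroxylase gene Hn, whose product supplies tyrosine, had a difference of 0.13.

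**Figure D3:**
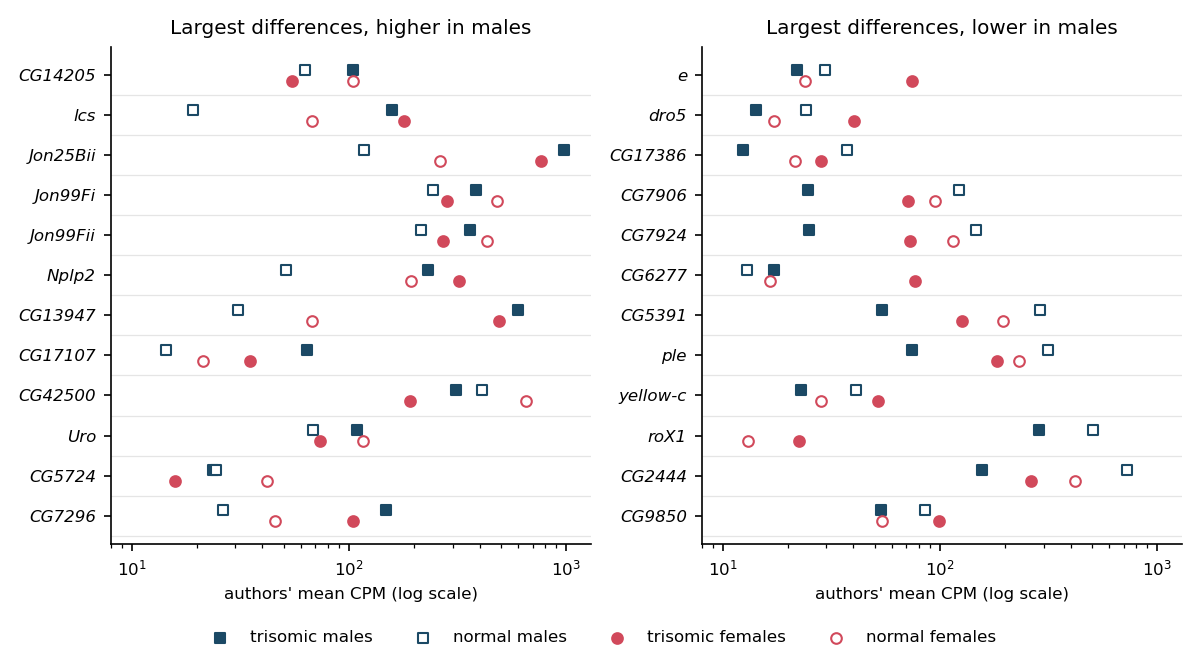
Authors' mean CPM (log axis) in trisomic males (filled squares), normal males (open squares), trisomic females (filled circles) and normal females (open circles) for the 12 genes with the most positive difference of responses (left) and the 12 with the most negative one (right). In Jon25Bii the male squares stand further apart (979.6 against 118 CPM) than the female circles (765 against 262 CPM), and in e the trisomic females stand alone at 74.1 CPM.

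The list of ecdysone response genes, which also holds genes of juvenile hormone, had differences in both directions. Of 21 genes kept 4 passed the threshold below 0 and 4 above it (3.5% and 5.92% of all genes), with a median of -0.10. ImpE2, an ecdysone-inducible gene of imaginal discs, stood at 58.2 CPM in trisomic and 136 CPM in normal males, and 114 CPM in trisomic and 110.1 CPM in normal females (-1.26). broad (br, X), an early transcription factor of the ecdysone cascade, stood at 33.6 CPM in trisomic and 70.7 CPM in normal males, and 65.04 CPM in trisomic and 64.8 CPM in normal females (-1.06), and its 12 transcript models had differences from -1.14 to -0.99. The nuclear receptor gene Eip75B stood at 26.7 CPM in trisomic and 48.4 CPM in normal males, and 39.9 CPM in trisomic and 40.4 CPM in normal females (-0.81). In these 3 genes trisomic males were lowest and both female groups lay close together. The ecdysone receptor gene EcR (-0.36), Eip74EF (-0.37) and Hr39 (-0.39) lay below 0 without reaching the threshold, and ImpL2 (-0.60) reached it. The 4 past the threshold above 0 were mostly juvenile hormone genes. They were the epoxide hydrolase genes Jheh1 (0.64) and Jheh3 (0.77), the juvenile hormone-inducible JhI-26 (0.72) and ImpL3 (0.66). ImpL3 is the lactate dehydrogenase gene that the glycolysis list also holds. Small heat shock protein genes of 3L, which protect other proteins from aggregation, lay below 0. Hsp23 stood at 299 CPM in trisomic and 1080.1 CPM in normal males, and 531 CPM in trisomic and 997 CPM in normal females (-0.94), and Hsp26 (-0.68) and its neighbour Hsp27 (-0.67) followed, while the other 13 of 16 heat shock and chaperone genes stayed within the threshold (list median -0.08).

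The glue list and the fat body list each held a few members that differed between the sexes. Of 9 glue and new-glue genes 8 had differences below 0 (55.3% of all genes), with a median of -0.35. Sgs1 (2L) passed the threshold at 246 CPM in trisomic and 736 CPM in normal males, and 532 CPM in trisomic and 931 CPM in normal females (-0.77). The new-glue gene ng3 (X) went the other way, at 388 CPM in trisomic and 88.3 CPM in normal males, and 382 CPM in trisomic and 178 CPM in normal females (1.02). The Fbp1 gene, which encodes a fat body receptor for larval serum proteins, stood at 4839 CPM in trisomic and 6454 CPM in normal males, and 15894 CPM in trisomic and 13063 CPM in normal females (-0.70). Fbp2 (2L) stood at 1585 CPM in trisomic and 2067 CPM in normal males, and 3914 CPM in trisomic and 2998 CPM in normal females (-0.77), and both genes were lower in trisomic than in normal males and higher in trisomic than in normal females. The storage protein gene Lsp1alpha (X) was higher in trisomic larvae and more so in females, at 5472 CPM in trisomic and 2815 CPM in normal males, and 6528 CPM in trisomic and 2111 CPM in normal females (-0.67). Obp99b, of the odorant-binding protein family, stood at 2767 CPM in trisomic and 4169.9 CPM in normal males, and 1879 CPM in trisomic and 1389.6 CPM in normal females (-1.03), higher in both male groups than in either female group. Transferrin (Tsf1, X), an iron carrier of the haemolymph, had a difference of 0.82. Of the 18 genes of the fat body list 1 passed the threshold above 0 (5.92% of all genes) and 4 below (3.5%), with a median of -0.02. Means of at least 100 CPM were found in 13 of the 18, a range in which 13.8% of genes passed above 0 and 5.06% below.

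Haemocyte and basement membrane genes were mostly higher in trisomic larvae, to about the same degree in both sexes (median responses 1.24 in males and 1.24 in females; 16 genes). The 3 exceptions past the threshold were Nplp2 (1.42) and the prophenoloxidase genes proPO-A1 (0.72) and CG8193 (0.66), whose enzymes serve melanisation. Nplp2, a neuropeptide-like precursor gene, stood at 231 CPM in trisomic and 51.5 CPM in normal males, and 320.0 CPM in trisomic and 193 CPM in normal females, lowest in normal males. Among 12 antimicrobial and immune genes, with a median of -0.05, the antifungal peptide gene Drs stood at 56.2 CPM in trisomic and 28.7 CPM in normal males, and 46.7 CPM in trisomic and 12.9 CPM in normal females (-0.84) and the stress gene TotA had a difference of -0.66. The drosomycin-like gene dro5 was not on that list and stood at 14.3 CPM in trisomic and 24.1 CPM in normal males, and 40.4 CPM in trisomic and 17.3 CPM in normal females (-1.89). Larval cuticle genes split, with 5 of 31 past the threshold above 0 and 4 below (5.92% and 3.5% of all genes), and a median of 0.29. Cpr47Eb had a difference of 1.13. Cpr49Ac, at 672 CPM in trisomic and 1879.7 CPM in normal males, and 1045 CPM in trisomic and 1621 CPM in normal females, had one of -0.85.

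Ribosomal and housekeeping lists had small median differences, and in some of these lists nearly all genes lay on the same side of 0. Of 84 cytosolic ribosomal protein genes 82 lay above 0, against 44.7% of all genes, but 80 of them had means of at least 100 CPM, a range in which 61.9% of all genes lay above 0 with a median of 0.10. The median of the 84 genes was 0.14 and 3 passed the threshold, among them RpLP0 (0.65). Vacuolar ATPase genes (16 of 17 above 0, median 0.16) and aminoacyl-tRNA synthetases (14 of 17, median 0.16) had none past the threshold, where 44.7% of all genes lay above 0. Means of at least 100 CPM were found in 13 of the 17 vacuolar ATPase genes but in 0 of the 17 synthetase genes. Proteasome genes lay on the other side, with 23 of 27 below 0 (55.3% of all genes), a median of -0.20 and none past the threshold. Prosbeta3 (-0.42) and Rpn12 (-0.36) were lowest. Chromatin regulators, a list that also holds the eye pigment gene w, had 29 of 41 below 0 and a median of -0.12. Genes of DNA replication and the cell cycle had 20 of 29 below 0 and a median of -0.09. These counts lay nearer the 55.3% of all genes below 0. Means of at least 100 CPM were reached by 1 of the 41 and 0 of the 29, and among genes of 20 to 50 CPM only 38.5% lay above 0. Neither list had a gene past the threshold, and kis, a chromatin remodeller gene, was lowest of the regulators at -0.51. Lipid synthesis and storage genes had a median of 0.25 with 11 of 14 above 0, and acetyl-CoA synthetase (AcCoAS, 0.74) passed the threshold.

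The other lists had medians between -0.21 and 0.08. Translation factors (median 0.03), mitochondrial ribosomal proteins (0.08), insulin and TOR signalling (-0.06) and DNA damage and apoptosis genes (0.04) had none past the threshold. Antioxidant genes (0.07) had Gclc (0.65), and tubulins and actins (-0.05) had betaTub60D (-0.83). Germline and ovary genes (-0.07) had pum (-0.66), and the salivary gland markers other than glue (-0.21, 4 genes) had Sgs1, a glue gene that this list holds despite its name. Neuronal genes (-0.09) had ple and Ddc, which also serve tanning, and Appl (-0.81). The 7 sex determination genes kept had a median of -0.04 and none past the threshold, with the switch gene Sxl at 0.08 and snf at 0.00. Of the 6 genes kept of the MSL complex and its partners (median -0.08), msl-1 (-0.01) and the helicase gene mle (0.11) lay near 0, and the kinase gene JIL-1 had a difference of -0.43. roX1 (-1.55) was the exception, since it was lower in trisomic than in normal males and higher in trisomic than in normal females.

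The difference of responses is by construction the log2 ratio of males over females in trisomic larvae minus the same ratio in normal larvae, and so can be read as a change of sex bias. For the 291 genes above the threshold, the median sex ratio was 0.22 in trisomic and -0.54 in normal larvae. Trisomic males lay above trisomic females in 259 of these genes, and normal males below normal females in 286. The trisomic ratio was within 0.5 of 0 in 261 of them (89.7%), near the share of all genes kept (92.7%), and the normal ratio in 117 (40.2%), where 86.4% of all genes kept were. The larger of the 2 ratios was the normal one in 244 genes (83.8%), compared with 63.0% of all genes kept. For the 172 genes below the threshold the median sex ratio was -0.50 in trisomic and 0.30 in normal larvae, and the larger ratio was the trisomic one in 113. Among the 4455 genes within the threshold, the ratio was within 0.5 of 0 in 95.1% in trisomic and 90.1% in normal larvae. Trisomic males lay above trisomic females in 2278 of these 4455. The 291 genes were thus somewhat further apart between the sexes in trisomic larvae, mostly with males higher, and much further apart in normal larvae. Because the normal sex ratio enters the difference, this is a description and no test.

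**Figure D4:**
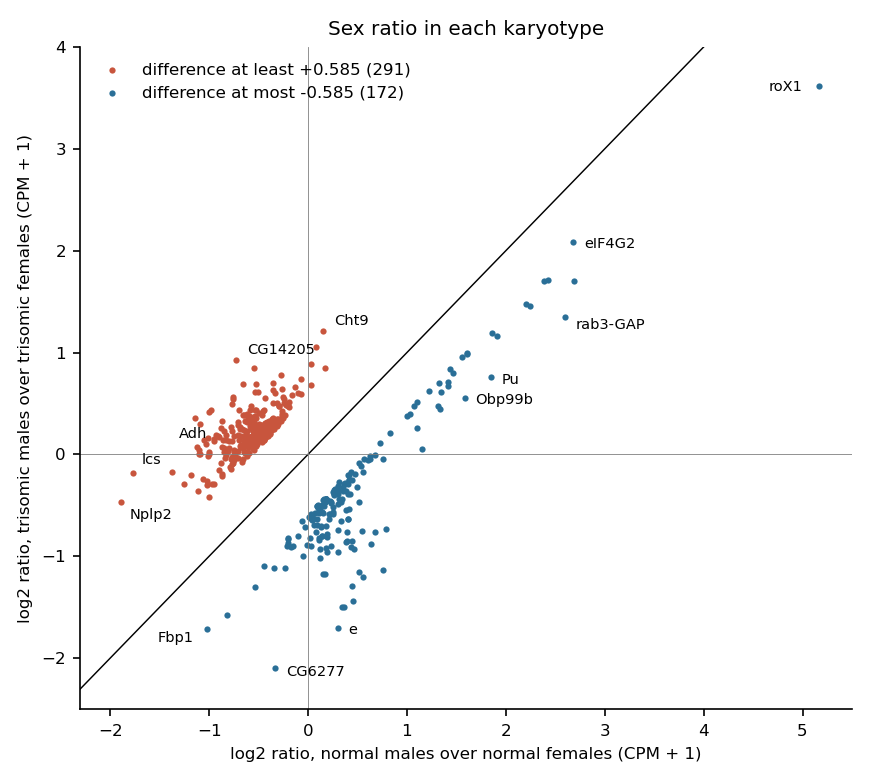
Log2 ratio of males over females (CPM + 1) in trisomic larvae (vertical axis) against that in normal larvae (horizontal axis), for the 291 genes (red) and 172 genes (blue) whose difference of responses passed 0.585; the line marks equal ratios. Red points gather left of 0 on the normal axis and near 0 on the trisomic one (medians -0.54 and 0.22), and a separate tail of blue points runs towards roX1, high in males of both karyotypes.

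Some of the 172 genes below the threshold were high in males: 30 were at least 2-fold higher in males than in females in normal larvae, and 10 in trisomic larvae. Of all genes kept, 26 (0.529%) were at least 2-fold higher in males in trisomic larvae and 79 (1.61%) in normal larvae. Since the normal ratio is subtracted in the difference, choosing genes by a high normal ratio favours differences below 0 and choosing them by a low one differences above 0, so the counts that follow describe these genes and support nothing. Of the 79 genes 78 had differences below 0 and 30 passed the threshold, with median responses of -0.56 in males and -0.05 in females. Pen, an importin gene required for sperm formation, stood at 252 CPM in trisomic and 353 CPM in normal males, and 90.1 CPM in trisomic and 75.7 CPM in normal females (-0.73). The translation initiation factor gene eIF4G2 stood at 79.1 CPM in trisomic and 136 CPM in normal males, and 17.9 CPM in trisomic and 20.3 CPM in normal females (-0.60), and rab3-GAP (2L) stood at 54.5 CPM in trisomic and 102 CPM in normal males, and 20.8 CPM in trisomic and 16.02 CPM in normal females (-1.25). In all 3 genes normal males were highest, trisomic males came next and both female groups were low. The summed level of testis and spermatocyte markers was also lower in trisomic males. Over the 45 list members in the tables it was 1566 CPM in trisomic and 2796 CPM in normal males, and 806 CPM in trisomic and 751 CPM in normal females. A few abundant members can set such a sum, and the females held part of it too. Only 5 of the 45 reached 10 CPM in all 4 groups (median difference -0.23, with Pen past the threshold). Of these 5, janA alone was at least 1.5-fold lower in trisomic than in normal males, and dj-1beta alone had a difference above 0 (0.54). In 2 of the 5 normal males lay below normal females, among them dj-1beta at 13.6 CPM in normal males and 20.2 CPM in normal females. The kept members thus did not all behave as male markers. The part of testis RNA in these differences was not tested. At least 2-fold lower in males than in females were 21 genes (0.427%) in trisomic larvae and 28 (0.569%) in normal larvae, and 22 of the 28 passed the threshold above 0. The gene lcs (X) was among them, at 158 CPM in trisomic and 19.2 CPM in normal males, and 179 CPM in trisomic and 67.9 CPM in normal females (1.59).

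The median difference of responses was close to that of all genes on each large chromosome arm. Its median was -0.05 over 989 genes of 2L, the arm in 3 copies, -0.02 over 1017 genes of 2R, -0.04 over 956 genes of 3L, -0.04 over 1160 genes of 3R and -0.03 over 707 genes of the X. The threshold was passed above 0 by 62 genes (6.27%) of 2L and below 0 by 43 (4.35%), against 189 (6.03%) and 101 (3.22%) of the 3133 genes of 2R, 3L and 3R, and 40 (5.66%) and 28 (3.96%) of the X. Chromosome 4 had the lowest median, -0.10 over 57 genes, and no gene past the threshold in either direction, with a range from -0.37 (zfh2) to 0.44 (Rfabg). Copy number was also compared gene by gene, as a response past the middle of the range from 0 to 1.5-fold on the log2 scale, with the median of 2R, 3L and 3R set to 0. Of the 989 genes of 2L, 475 (48.0%) passed that value in both sexes, 47 (4.75%) in males alone, 109 (11.02%) in females alone and 358 (36.2%) in neither. Of the 3133 genes of 2R, 3L and 3R, 810 (25.9%) passed it in both, 226 (7.21%) in males alone, 218 (6.96%) in females alone and 1879 (60.0%) in neither. The share in females alone was thus the larger of the single-sex shares on 2L, whereas both were similar on the other arms. On the X, CG14205 had the most positive difference of all genes kept, at 105 CPM in trisomic and 62.8 CPM in normal males, and 54.6 CPM in trisomic and 104 CPM in normal females (1.65), with the sexes in opposite order. CG2444, also on the X, stood at 156.50 CPM in trisomic and 725 CPM in normal males, and 261 CPM in trisomic and 419 CPM in normal females (-1.53). Of the other genes among the 12 most positive, CG13947 (2L) stood at 602 CPM in trisomic and 30.9 CPM in normal males, and 488 CPM in trisomic and 67.3 CPM in normal females (1.40) and CG42500 (3R) at 310.1 CPM in trisomic and 411 CPM in normal males, and 192 CPM in trisomic and 650.2 CPM in normal females (1.35). CG13947 was thus far higher in trisomic larvae, and CG42500 was lower in them, less so in males. Among the 12 most negative, CG5391 (3R) was lower in trisomic larvae, with responses of -2.39 in males and -0.63 in females, and CG17386 (2R) stood at 12.4 CPM in trisomic and 37.3 CPM in normal males, and 28.4 CPM in trisomic and 21.6 CPM in normal females (-1.89), lowest in trisomic males.

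**Figure D5:**
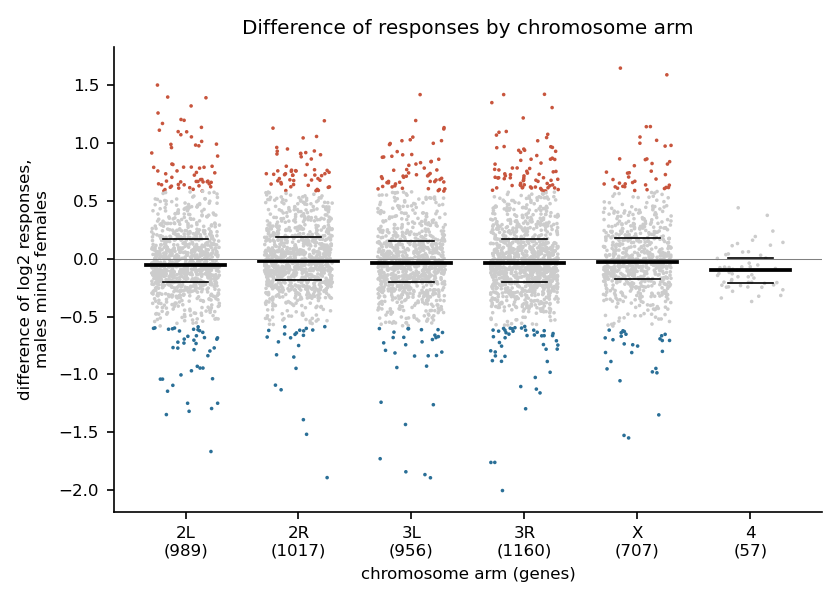
Difference of responses, males minus females on the log2 scale, for each gene by chromosome arm, with the number of genes under each arm; thick bars are medians and thin bars quartiles, and red and blue points lie past 0.585 in either direction. The medians of the large arms lie between -0.05 and -0.02, and the 57 genes of chromosome 4 stay within the threshold.

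Some genes past the threshold lay next to each other. Gene order was taken from a later genome release, used for order only, and covered 284 of the genes above 0 and 161 of those below 0. Of the 284 genes 99 (34.9%) had a kept gene beside them, on either side, that also passed the threshold above 0, against 11.3% of all 4749 placed genes with such a neighbour. Of the 161 genes 25 (15.5%) had a neighbour past the threshold below 0, against 6.63% of all placed genes. The longest run was CG17105, CG17107, CG7299, CG7296 and CG7294 on 2L, with differences of 0.82, 1.39, 1.07, 1.26 and 0.66. CG17107 stood at 64.3 CPM in trisomic and 14.3 CPM in normal males, and 35.2 CPM in trisomic and 21.3 CPM in normal females, while its neighbour CG17105 was lower in trisomic larvae, with responses of -0.93 in males and -1.75 in females. Other runs were copies of a family, such as Jon25Biii, Jon25Bii and Jon25Bi on 2L and the acyl-CoA binding protein genes CG8629, CG15829 and Dbi on 3L, in which reads may be shared. Below 0, the neighbours CG7924 and CG7906 on 3L were alike, the first at 24.96 CPM in trisomic and 146 CPM in normal males, and 72.5 CPM in trisomic and 115 CPM in normal females (-1.84) and the second with a difference of -1.87.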

How the data were processed

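Per the labels' protocols, total RNA of larvae was sequenced from TruSeq RNA libraries. TopHat, HTSeq and build dm3 are named in the submitters' processing notes, while versions and the strand setting were not given in the sources used here. Per the file headers, the authors deposited CPM for autosomal and X transcript models, and each column is the mean of a group; each sums to 1000000 over both tables. The most repeated value of a column lay at 0.389 to 2.81 CPM, under the minimum used here. Values of 22738 transcript models were averaged by gene name (2213 of the genes kept had more than 1), and 1 was added before taking log2, which shrinks differences of low genes. Genes under 10 CPM in any of the 4 groups were left out, which removes genes measured in a single sex or karyotype. Reads of overlapping genes, antisense genes and close copies cannot be told apart; 7 genes past the threshold shared all 4 values with another name.

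Because the columns are group means, the planned test of the interaction was not run, and differences were counted by size. The genes, the 37 lists and the tests were chosen with earlier results of these data known, and 5 further lists after their values had been seen; 3 genes caught by a name pattern but outside its family were removed. Named genes were the 12 largest differences in each direction, the 5 most abundant past 1.5-fold in each, those 1.5-fold changed in opposite directions, the 3 largest of each list, the kept MSL and sex determination genes, and the 5 extremes of 2L, X and chromosome 4; other names were chosen after their values were seen. Alternatives changed the pseudocount, the minimum, how transcript models are combined, the scale and the threshold. The steps were tested on simulated data with little noise and planted differences past the threshold. That checks the computation only, since the noise between replicates of these data is unknown. A reference of Release 6 matched 4820 of the 4918 genes and gave gene order and current names only, and no sequence is shown. The tools were matplotlib 3.10.9, scipy 1.17.1, numpy 2.4.6 and pandas 2.3.3 under Python 3.11.15.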

Additional observations from a re-analysis of the deposited data

Results flagged for a closer look

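In 8 genes the karyotypes differed by at least 1.5-fold in each sex but in opposite directions; with 1 value per group the difference between the sexes was not tested, and each is given by its difference of responses, males minus females. Trisomic males lay below normal males, and trisomic females above normal females, for dro5 (-1.89), yellow-c (-1.67), roX1 (-1.55) and CG9850 (-1.52). CG9850, listed as sona in the current annotation, stood at 53.5 CPM in trisomic and 85.01 CPM in normal males, and 99.1 CPM in trisomic and 54.2 CPM in normal females. Trisomic males lay above normal males, and trisomic females below normal females, for CG14205 (1.65), Jon99Fi (1.42), Jon99Fii (1.42) and Uro (1.32).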

How the results depend on the processing

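No paired analysis was possible because the columns are group means; for the same reason leave-one-out fits were not run. The ratio of the spread of responses in males over females lay between 1.19 and 1.29 under every alternative, and the median difference between -0.08 and -0.01. The X median, -0.03, was 0.01 over genes with 1 transcript model. The minimum mattered most: with none, 768 genes passed above 0 and 2444 below, in classes of 313 (higher in both sexes, more in males), 212 (lower in both, less in males), 243 (higher in males, lower in females), 524 (lower in both, more in males), 137 (higher in both, more in females) and 1783 (lower in males, higher in females), and the tanning median turned to 0.0146. A mean of at least 10 CPM, added after seeing the data, gave 371 above 0 and 599 below, with the last 3 classes at 187, 28 and 384; a minimum of 5 CPM gave 118 and 26 for the first 2 of these. At 20 CPM 103 genes passed below 0, and the first class had 104 and the last 3 had 48, 9 and 46; over genes with 1 transcript model these were 93, 108, 44, 11 and 38. At 2-fold 44 and 36 genes passed, in classes of 22, 6, 16, 15, 2 and 19. Genes higher in both, more so in females, numbered 8 with a pseudocount of 5 and 31 after centring each sex on 2R, 3L and 3R, which moved all differences by -0.01. Of the 291 and 172 genes, 232 and 122 stayed past the threshold with a pseudocount of 5. The ecdysone median was 0.32 over genes with 1 transcript model, and 10 other lists with medians near 0 changed sign under some alternative.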

Other observations

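A few genes outside the lists are given as single values, chosen after their values had been seen; they stand for no group. The acetyltransferase gene nej stood at 29.04 CPM in trisomic and 46.7 CPM in normal males, and 42.6 CPM in trisomic and 34.8 CPM in normal females, a difference of -0.95, and the corepressor gene Smr had responses of -0.83 in males and -0.03 in females (-0.80). The ecdysone-induced transporter gene E23 (2L) had a difference of -1.09, with responses of -0.83 in males and 0.26 in females, and the Notch coactivator gene mam one of -0.59. Arginine kinase (Argk), which buffers energy in muscle, stood at 1561 CPM in trisomic and 525 CPM in normal males, and 1344 CPM in trisomic and 809 CPM in normal females (0.84), with normal males lowest of the 4 groups.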
